A study of Mus musculus with 34 samples.

Results

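The sites described here are stretches of mouse liver chromatin, away from promoters, that were bound by HDAC3 and PROX1 together and by HNF4α with a comparatively low peak score. They were found in 3 deposited peak lists as lines shared by the HDAC3 and PROX1 lists (co-bound sites) whose centre lay more than 1 kb from every transcription start site (TSS) of a protein-coding gene, of which a single HNF4α peak covered at least 50%, and whose HNF4α peak scored below 66.9. The rule kept 7893 of the 20039 co-bound sites of the series. They were 42.8% of the 18453 distal co-bound sites and 69.1% of the 11417 distal sites bound by all 3 factors. The members were thus chosen by the HNF4α score and the coverage by the HNF4α peak, and both are given as a description only. The members are called weaker sites, the 3524 distal triply bound sites at or above the limit stronger sites, and the 7036 distal co-bound sites without 50% coverage by an HNF4α peak uncovered sites. Of the uncovered sites 1043, 14.8%, were still touched by an HNF4α peak.

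Chromatin immunoprecipitation with sequencing (ChIP-seq) was done on livers of male C57B/6 mice, labelled 10 weeks old and taken at zeitgeber time 10, that is 10 hours after lights on. Control livers gave 3 libraries each for HDAC3 and PROX1, and livers with floxed *Hnf4α* gave 2 labelled HNF4α libraries. In the methods, such controls carried the floxed allele and received an AAV8 virus with a reporter in place of Cre, under the hepatocyte promoter TBG. The methods give 3 livers of different mice per ChIP-seq, where the labels list 2 HNF4α libraries. Whether libraries of different factors shared a mouse is not stated. The chromatin came from whole liver, so binding in hepatocytes and in other liver cells cannot be told apart. The lists hold no RNA level, and the labelled tissue could not be checked against the expression of its markers.

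HNF4α is a nuclear receptor of hepatocytes that binds DNA as a homodimer, at direct repeats of a hexamer with a 1-base spacer, and it is needed for much of the gene program of the adult liver. HDAC3 is a histone deacetylase that works within the NCoR and SMRT corepressor complexes and has no DNA-binding domain. PROX1 is a homeodomain protein of liver and lymphatic endothelium that also acts as a corepressor of nuclear receptors. The study asked by knockout of *Hnf4α* whether HNF4α holds the other factors on DNA, and reported that a portion of HDAC3 and PROX1 peaks fell strongly. It also reported that, at co-bound sites, dependence on HNF4α rose with the strength of HNF4α binding. The knockout is not analysed here, and the sequence under sites of lower HNF4α score bears on what such sites contain.

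Sequences of weaker sites at genes of lipid storage and synthesis are shown first, since these are the genes on which the study concentrated. Each is the 200 bp site of the HDAC3 and PROX1 lists on the forward strand of mm9, read 5′ to 3′, and capitals mark the best match to the HNF4 consensus where it has at most 2 mismatches, on either strand.
*G0s2* upstream site, chr1:195104659-195104858: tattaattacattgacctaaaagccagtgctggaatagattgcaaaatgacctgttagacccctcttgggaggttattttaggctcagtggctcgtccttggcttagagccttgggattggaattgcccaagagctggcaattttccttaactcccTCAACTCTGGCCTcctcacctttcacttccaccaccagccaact
*Elovl6* intronic site, chr3:129285460-129285659: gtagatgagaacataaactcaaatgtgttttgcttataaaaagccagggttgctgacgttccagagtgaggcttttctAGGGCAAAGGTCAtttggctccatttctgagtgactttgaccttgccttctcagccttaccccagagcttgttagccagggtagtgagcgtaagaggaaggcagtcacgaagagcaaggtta
*Agpat2* intronic site, chr2:26455524-26455723: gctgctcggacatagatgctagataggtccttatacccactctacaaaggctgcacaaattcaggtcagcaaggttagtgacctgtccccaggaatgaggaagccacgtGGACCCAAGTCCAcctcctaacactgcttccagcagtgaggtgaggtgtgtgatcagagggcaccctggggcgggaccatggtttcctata
*Cidec* upstream site, chr6:113388773-113388972: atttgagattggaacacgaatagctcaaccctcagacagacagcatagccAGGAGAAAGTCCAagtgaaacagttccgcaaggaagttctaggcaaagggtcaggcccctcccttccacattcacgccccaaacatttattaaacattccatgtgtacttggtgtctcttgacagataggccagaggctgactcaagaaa
*Cd36* upstream site, chr5:17434486-17434685: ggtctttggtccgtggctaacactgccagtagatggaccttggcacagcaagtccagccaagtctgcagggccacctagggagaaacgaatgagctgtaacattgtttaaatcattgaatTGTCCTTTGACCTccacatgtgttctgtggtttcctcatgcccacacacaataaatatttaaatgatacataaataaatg
*Mfsd2a* intronic site, chr4:122636090-122636289: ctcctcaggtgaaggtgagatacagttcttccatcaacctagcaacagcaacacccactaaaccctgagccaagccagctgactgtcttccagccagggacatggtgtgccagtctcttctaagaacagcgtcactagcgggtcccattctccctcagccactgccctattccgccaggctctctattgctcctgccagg
*Gpd1* upstream site, chr15:99540741-99540940: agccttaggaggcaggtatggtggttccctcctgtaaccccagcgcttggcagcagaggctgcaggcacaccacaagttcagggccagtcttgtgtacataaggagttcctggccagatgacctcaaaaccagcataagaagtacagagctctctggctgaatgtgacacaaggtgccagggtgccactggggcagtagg

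*G0s2* encodes an inhibitor of the lipase ATGL, *Elovl6* a fatty acid elongase, *Agpat2* an acyltransferase of triglyceride synthesis, *Cidec* a lipid droplet protein, *Cd36* a fatty acid transporter, *Mfsd2a* a lysolipid transporter and *Gpd1* a glycerol-3-phosphate dehydrogenase. For each gene the weaker site with the highest HNF4α score was taken, in a window that began 50 kb upstream of the TSS and closed 2 kb beyond the 3′ end of the gene. The *G0s2* site lay 5.38 kb upstream of the TSS under an HNF4α peak of score 60.8, with 143 of 200 bp covered. The *Elovl6* site lay in an intron 50.3 kb downstream of the TSS and scored 63.6. The *Agpat2* site, in an intron 4.31 kb downstream of the TSS, scored 60.3. The *Cidec* site, 3.12 kb upstream, scored 48.1, and the *Cd36* site, 39.8 kb upstream and closer to the TSS of *Gnat3*, scored 60.8. These 5 sites each held a match, and those of the other 5 of the 10 lipid genes with a weaker site held none. The *Mfsd2a* site, 2.24 kb downstream of the TSS, scored 33.9 and its best match had 4 mismatches. The *Gpd1* site, 7.11 kb upstream of that gene and 3.56 kb from the TSS of Gm17241, scored 48.1 and its best match also had 4 mismatches, so no letters are in capitals in either. The sites of *Acacb*, scored 33.0, *Smpd3*, scored 58.9, and *Vnn1*, scored 22.1, are not printed and had best matches with 3, 4 and 3 mismatches. Sites of similar score therefore came with and without a match.

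The ends of the score range are shown by 2 further sites, given because they stand at the highest and the lowest score found among the members. The top score was shared by 63 sites. Of 3 sites named at each end, the one with an HNF4 match is printed, picked after the sequences were seen. Sites of equal score were taken by chromosome and position, in reverse order at the top score.
highest score, near *Tbc1d25*, chrX:7756087-7756286: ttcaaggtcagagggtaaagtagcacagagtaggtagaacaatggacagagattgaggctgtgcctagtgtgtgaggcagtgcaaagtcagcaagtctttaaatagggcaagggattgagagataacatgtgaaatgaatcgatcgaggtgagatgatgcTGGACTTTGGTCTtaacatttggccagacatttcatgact
lowest score, intron of 1700066M21Rik, chr1:57448381-57448580: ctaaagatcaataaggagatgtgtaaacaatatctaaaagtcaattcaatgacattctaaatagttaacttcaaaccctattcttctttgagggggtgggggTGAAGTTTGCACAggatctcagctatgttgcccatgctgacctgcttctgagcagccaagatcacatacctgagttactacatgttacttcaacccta

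The first scored 66.4, was intergenic, and lay 2.88 kb from the TSS of *Tbc1d25*. Its match had 1 mismatch, 66.5 bp from the centre of the site. The second scored 20.3, lay 14.0 kb from the nearest TSS, and its match had 2 mismatches at 8.5 bp from the centre. The best matches of the others named had 3 mismatches each at 66.4, and 4 and 3 mismatches at 20.3. A high or a low score within the range did not go with a match at every site.

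The score of the covering HNF4α peak, the authors' HOMER peak score, ran from 20.3 to 66.4 over the weaker sites, with a median of 41.9 and a mean of 42.7 ± 12.8 (SD over sites). The lowest score in the whole HNF4α list was also 20.3, so the lower end of the range is that of the list. HNF4α signal too low for the list would not be seen here, at uncovered sites too. The stronger sites ran from 66.9 to 160.2 with a median of 84.3. Just inside the limit, 63 sites scored 65.5, 55 scored 66.0 and 63 scored 66.4. Just outside, 59 scored 66.9, 54 scored 67.4 and 51 scored 67.8, so the sites passed through the limit without a gap. Among all 24253 HNF4α peaks 80.3% scored below the limit, and 61.9% of distal co-bound sites were covered to at least 50% by an HNF4α peak. Both shares enter the rule and nothing is read from them.

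**Figure D1:**
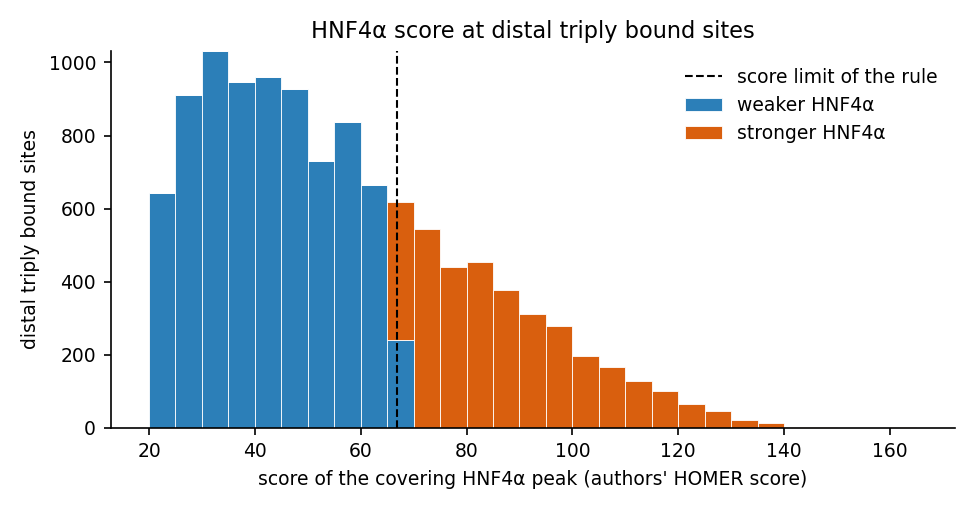
Number of distal triply bound sites (vertical axis) by score of the covering HNF4α peak (horizontal axis, bins of 5), with weaker sites in blue, stronger sites stacked on them in orange and the limit as a dashed line. The 7893 weaker sites run into the 3524 stronger ones without a gap at the limit.

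All 254 distinct scores were whole multiples of 0.471 within 0.0499. If a step stood for 1 read, the weaker sites would rest on 43 to 141 reads with a median of 89, and Poisson counting alone would give an SD of 5.61 score units at the limit. In that reading 757 weaker sites, 9.59% of them, and 615 stronger sites, 17.5%, lay within 1 such SD of the limit. Replicates were pooled by the authors before peaks were called, so no spread between livers can be given for any site, and the tests below are over sites, which are not replicates of a liver. All intervals are 95% intervals that cover counting over sites only.

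Each of the 7893 weaker sites was covered by an HNF4α peak of its own. The HNF4α peaks were 100 to 168 bp wide, with a median of 156 bp at weaker and 161 bp at stronger sites, and 61.7% lay entirely inside their weaker site. The centres of the HNF4α peak and of the site were a median of 18 bp apart at weaker sites and 17 bp apart at stronger sites. At least 75% of the site was covered in 49.2% of weaker and 63.1% of stronger sites. A narrower peak covers less of a 200 bp site, and these measures come from the peak that the rule used.

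The HNF4 consensus, searched as 13 letters on both strands with up to 2 mismatches, was found in 2634 of 7893 weaker sites, 33.4% (95% CI 32.3 to 34.4). It was found in 59.0% (57.4 to 60.6) of stronger sites and 15.2% of uncovered sites. Windows of the same length 2 kb to either side of the weaker sites held it in 9.66%, and all co-bound sites in 31.2%. The weaker sites were thus 25.6 points below the stronger sites (interval of the difference -27.5 to -23.7, Pearson's chi-square test, adjusted p = 3.6e-144) and 18.2 points above the uncovered sites (16.9 to 19.5, chi-square adjusted p = 3.1e-144). The difference from stronger sites was negative on 20 of 20 chromosomes, from -36.0 to -16.2 points, and that from uncovered sites positive on 20 of 20, from 8.37 to 27.9 points. With 1 mismatch fewer, both differences were smaller, at -11.9 and 4.62 points, and within 5 strata of GC content they were -25.6 and 18.2 points. The consensus read backwards, which has the same base composition, was in 8.31% of weaker, 9.36% of stronger and 6.87% of flanking windows, and the difference between the classes did not pass the test (-2.22 to 0.06 points, chi-square adjusted p = 0.12).

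Within the weaker sites the share with an HNF4 match followed the score, which is given without a test since the score is part of the rule. It was 21.3% (19.3 to 23.4) of 1554 sites with a score of at least 20 and below 30, 28.3% of 1978 sites below 40, 34.2% of 1888 below 50, 40.5% of 1567 below 60 and 51.0% (47.7 to 54.2) of the 906 sites from 60 up to the limit. Stronger sites below 80 stood at 52.3% (49.6 to 54.9), those below 100 at 61.1% and those above at 67.3%. The weaker sites nearest to the limit and the stronger sites next to them therefore overlapped within their intervals, and even the lowest bin stood above the uncovered sites. The mean GC content rose from 45.0% in the lowest bin of weaker sites to 46.8% in the bin from 50 to 60. It was 46.4% in weaker sites from 60 up and 47.4% in stronger sites from 100 up. Weaker sites with a match had a median score of 46.6 and those without one of 39.6, and both covered the full range of scores from 20.3 to 66.4.

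**Figure D2:**
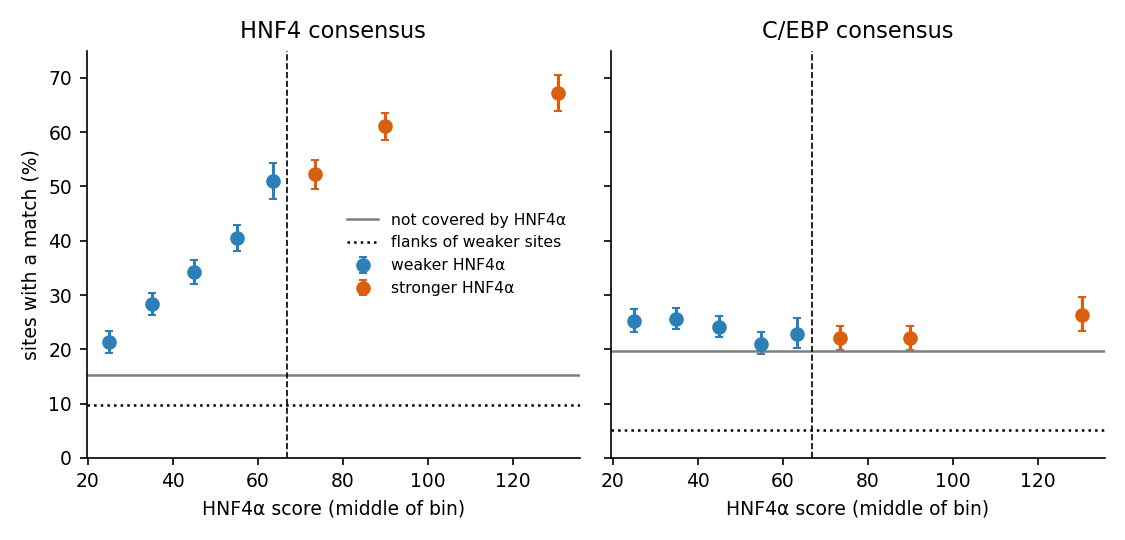
Percent of sites with a match to the HNF4 consensus (left) and the C/EBP consensus (right) against the score of the HNF4α peak, with 95% Wilson intervals, for weaker (blue) and stronger (orange) sites. The gray line is the share in uncovered sites and the dotted line that in flanks of weaker sites. The HNF4 share climbs from 21.3% to 51.0% across the weaker sites, and the C/EBP share stays between 21.1% and 25.6%.

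C/EBP proteins are leucine zipper factors of the liver, and their 10-letter consensus was searched with up to 1 mismatch. It was found in 24.0% (23.0 to 24.9) of weaker sites, 23.0% of stronger sites, 19.8% of uncovered sites and 5.16% of flanking windows. Weaker and stronger sites did not differ beyond counting error (1.00 point, -0.69 to 2.66, chi-square adjusted p = 0.35). Weaker sites exceeded uncovered sites by 4.20 points (2.88 to 5.52, chi-square adjusted p = 2.8e-09), on 19 of 20 chromosomes. With 1 mismatch fewer the difference from stronger sites turned to -0.803 points and passed an unadjusted limit (chi-square p = 0.023), and that from uncovered sites was 0.498 points and no longer passed it (chi-square p = 0.060). With a score limit of 50 in place of the rule's the difference from stronger sites was 2.54 points (chi-square p = 0.0014), while within strata of GC content it was 0.037 points. By score, the share was 25.2% of weaker sites below 30, 25.6% (23.7 to 27.6) from 30 to 40, 24.2% from 40 to 50, 21.1% (19.1 to 23.2) from 50 to 60 and 22.9% from 60 up, so the intervals of the bins from 30 and from 50 did not overlap. In stronger sites the share was 22.1% below 80, 22.0% from 80 to 100 and 26.4% (23.3 to 29.7) from 100 up.

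Matches to the HNF4 and C/EBP consensus stood together in 480 weaker sites (6.08%), the HNF4 consensus alone in 27.3%, the C/EBP consensus alone in 17.9% and neither in 48.8%. The share with neither was 29.3% in stronger and 67.2% in uncovered sites, so weaker sites lay 19.4 points above the former (17.6 to 21.3, chi-square adjusted p = 5.2e-83 over 12 comparisons of shares) and differed from the latter by -18.5 points. Among weaker sites with an HNF4 match 18.2% also held a C/EBP match, against 26.8% of those without. The same order stood in stronger sites, 19.1% against 28.5%, and in uncovered sites, 14.3% against 20.7%, and was not tested. Adding FOXA, LRH-1, HNF6, HNF1, PPAR-RXR and the nuclear receptor hexamer left 21.7% of weaker sites with none of 8 liver motifs, against 14.0% of stronger and 33.7% of uncovered sites.

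The closeness of the best match to the HNF4 consensus was also compared. In weaker sites it had no mismatch in 41 sites, 1 mismatch in 485, 2 in 2108, 3 in 3648 and more in 1611. At most 1 mismatch was thus seen in 6.66% of weaker sites, 18.6% of stronger sites and 2.05% of uncovered sites, and the distribution over 4 classes of mismatch differed between weaker and stronger sites (chi-square 861.5 with 3 degrees of freedom, p = 2.0e-186). A second match in the same window was found in 3.85% of weaker sites, 11.0% of stronger sites (difference -7.16 points, -8.31 to -6.07, chi-square adjusted p = 3.9e-49) and 1.22% of uncovered sites.

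The matched sequences themselves varied. On all chromosomes but 1, which is not shown, 2556 weaker sites with a match held 1859 different 13-letter sequences, of which 1404 were seen once. The 6 most frequent are shown because they are the forms of the element that recur among weaker sites, written in the direction of the consensus with positions 5 to 9, the core, in capitals.
match 1: agggCAAAGgtca
match 2: aggtCAAAGttca
match 3: aggtCAGAGttca
match 4: aggcCAGAGgtca
match 5: agggCAAAGgtga
match 6: aggtCAAAGagca

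The first 3 were each found in 8 weaker sites and the others in 7. Among 2000 stronger sites with a match they were found 2, 5, 2, 0, 1 and 1 times. The sequences were picked by their counts in weaker sites, so their counts in stronger sites are given as a description only. No preference of these sequences for weaker sites is read from them.

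Position by position, the matches of weaker and stronger sites differed in how often they kept the consensus letter at 10 of 13 positions, 76.9% (Pearson's chi-square test, adjusted over the positions). A match had at most 2 mismatches, so the positions were not independent of each other. The widest difference was at position 10, where 70.6% of weaker and 80.2% of stronger matches had T (-9.61 points, chi-square adjusted p = 6.0e-13) and G stood in 19.6% and 12.7%. At the core positions 5 to 9 weaker matches kept the consensus less often, with differences from -4.43 to -2.30 points. At positions 1, 3, 11 and 13 they kept it more often, by 5.01 points at position 13 (chi-square adjusted p = 1.8e-05). Both C and T count as consensus at position 11, and weaker matches had C in 38.9% and T in 52.5%, where stronger matches had C in 52.8% and T in 35.9%, a split that was not tested. The nonamer CAAAGTCCA, which is the 3′ part of the consensus with C at position 11, was in 2.32% of weaker, 8.29% of stronger, 0.768% of uncovered and 0.374% of flanking windows (weaker minus stronger -5.97 points, chi-square adjusted p = 3.5e-48).

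The middle of the best match lay a median of 35.5 bp from the centre of the HDAC3 and PROX1 site in weaker sites and 29.5 bp in stronger sites. From the centre of the HNF4α peak it lay 24.5 and 21.5 bp away, and in 59.7% of weaker sites with a match it was closer to the HNF4α centre than to the site centre. A match within 25 bp of the site centre was found in 968 of 2634 weaker sites with a match, 36.7% (34.9 to 38.6). That was 4.42 points below stronger sites (-7.23 to -1.62, chi-square adjusted p = 0.0026) and 8.38 points above uncovered sites (5.06 to 11.6, chi-square adjusted p = 2.0e-06).

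**Figure D3:**
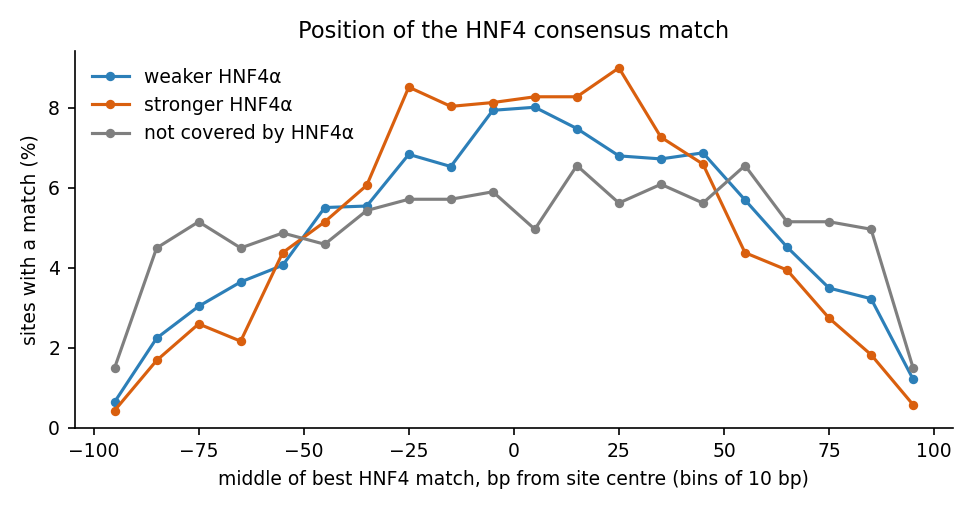
Percent of sites with an HNF4 match (vertical axis) whose best match is centred at a given distance from the middle of the site (horizontal axis, bp), for weaker (blue), stronger (orange) and uncovered (gray) sites. Weaker sites, with a median distance of 35.5 bp, run between the other classes near the middle of the site.

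In all, 23 motifs were compared. Against stronger sites 5 passed an adjusted p of 0.05, 21.7%, with 2 higher and 3 lower in weaker sites. Against uncovered sites 8 passed, 34.8%, with 6 higher and 2 lower. The number that passed against stronger sites ran from 2 to 12 over the alternative settings, and that against uncovered sites from 6 to 10. Besides the HNF4 consensus and its nonamer, the glucocorticoid receptor element was lower in weaker than in stronger sites, 6.44% against 7.95% (chi-square adjusted p = 0.015). Higher was the consensus of HNF1, a homeodomain factor of liver and kidney, 6.13% against 3.75% (difference 2.39 points, 1.54 to 3.19, chi-square adjusted p = 1.4e-06). The Rev-erb DR2 consensus, searched with up to 3 mismatches, was also higher, 1.75% against 0.880% (chi-square adjusted p = 0.0022). With 1 mismatch fewer only 2 motifs passed against stronger sites, the HNF4 consensus and its nonamer. The nonamer was searched without mismatches, so this setting left it unchanged. The calls of HNF1, Rev-erb DR2 and the glucocorticoid receptor element therefore did not hold in this setting. Rev-erb is a heme-binding nuclear receptor of the clock that recruits HDAC3 through NCoR, and its DR2 consensus was in 0.957% of the flanks of weaker sites and 2.02% of uncovered sites. The HNF1 consensus was in 8.21% of uncovered sites, from which the weaker sites differed by -2.08 points (chi-square adjusted p = 2.5e-06), so that weaker sites stood between the other classes.

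Of the further nuclear receptor elements only the hexamer, which can also stand within an HNF4 match, was frequent. The hexamer AGGTCA was in 37.7% of weaker, 35.4% of stronger and 31.6% of uncovered sites and in 13.02% of flanks. The difference from stronger sites missed the limit (2.32 points, 0.40 to 4.21, chi-square adjusted p = 0.052), and that from uncovered sites passed it (6.08 points, chi-square adjusted p = 8.4e-14). The PPAR-RXR direct repeat, which overlaps the HNF4 consensus in its letters, was in 2.18% of weaker, 2.78% of stronger and 0.938% of uncovered sites. The LRH-1 element TCAAGGTCA, which holds AGGTCA, was in 2.002% of weaker and 1.36% of stronger sites (chi-square adjusted p = 0.052), and the longer ROR and Rev-erb element in 1.11% and 0.624% (chi-square adjusted p = 0.050, not below the limit). The FXR inverted repeat was in 1.29% and 1.39%.

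Motifs of other liver factors did not pass the test between weaker and stronger sites. The FOXA core TGTTTAC, bound by the pioneer factors of the liver, was in 8.03% and 8.29% (difference -1.37 to 0.81 points). The HNF6 core TATTGAT was in 9.44% and 9.51%, and exceeded the 7.42% of uncovered sites by 2.02 points (chi-square adjusted p = 2.8e-05). The NFI palindrome was in 7.16% and 6.47%, the D-box TTATGTAA of the PAR zipper factors in 2.66% and 2.75%, the E-box CACGTG in 3.84% and 4.29%, and the AP-1 site TGANTCA in 9.19% and 8.51%. The STAT site TTCNNNGAA was in 8.07% of weaker, 7.01% of stronger and 11.4% of uncovered sites, and differed from uncovered sites by -3.33 points (chi-square adjusted p = 3.5e-11). The GC box GGGCGG, at 2.79%, the ETS site CCGGAAGT, at 0.114%, and the CTCF consensus, at 5.30%, were near or below their flanks, at 3.43%, 0.253% and 5.08%. The SREBP element TCACNCCAC was in 0.849% of weaker sites and 0.621% of flanks.

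**Figure D4:**
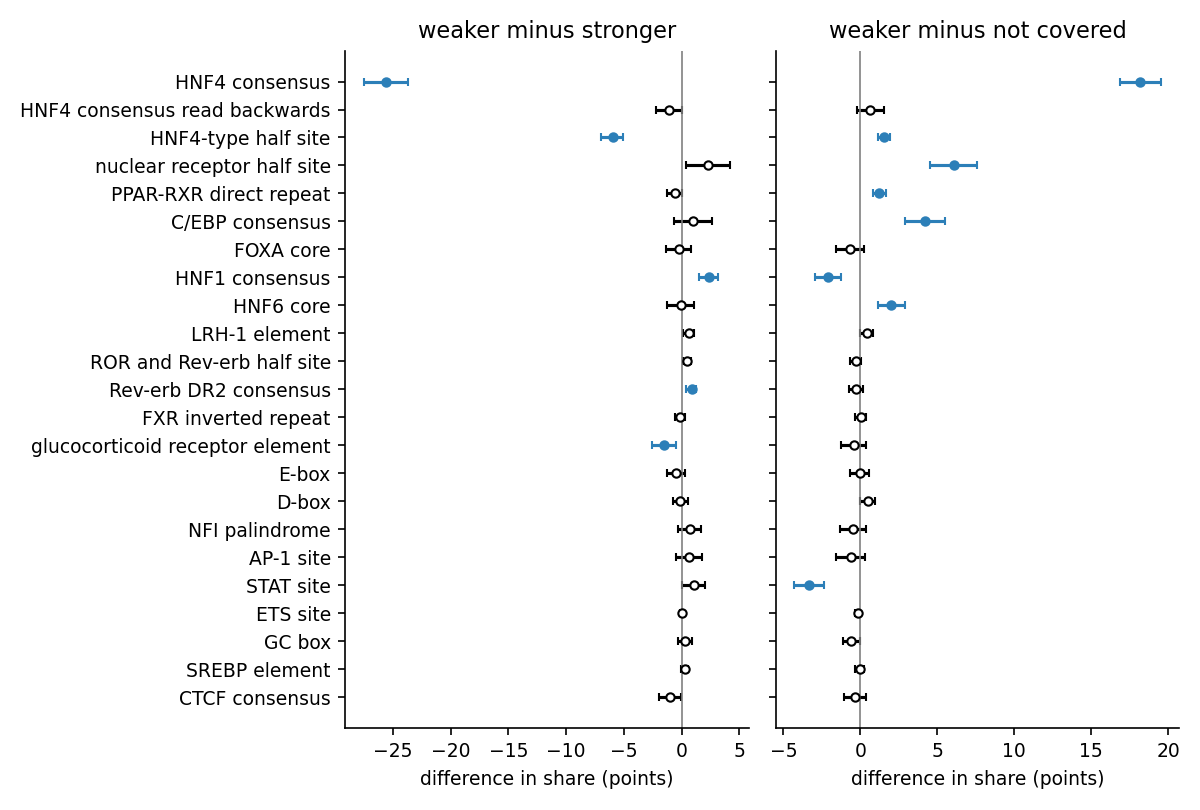
Difference in the percent of sites with each of 23 motifs, weaker minus stronger (left) and weaker minus uncovered (right), in percentage points with 95% intervals. Filled blue points passed an adjusted p of 0.05, open points did not. The HNF4 consensus stands apart at -25.6 points on the left and 18.2 points on the right.

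Weaker sites lay a median of 21.4 kb from the nearest protein-coding TSS, from 1.001 kb to 2033 kb, stronger sites 19.4 kb and uncovered sites 20.7 kb. Within 10 kb of a TSS were 29.96% of weaker and 32.0% of stronger sites (difference -2.05 points, -3.90 to -0.22, chi-square adjusted p = 0.034) and 32.6% of uncovered sites (-2.63 points, chi-square adjusted p = 8.2e-04). Introns held 50.4% of the weaker sites, exons 2.62% and intergenic sequence 47.0%. The intronic share was 48.8% in stronger sites and did not differ beyond counting error (1.61 points, -0.38 to 3.59, chi-square adjusted p = 0.12). The mean GC content was 46.0% ± 5.58 (SD over sites) in weaker, 46.9% in stronger and 46.1% in uncovered sites, against 44.95% in the flanks of weaker sites.

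The weaker share of distal triply bound sites ran from 65.8% to 73.1% over the 19 autosomes. On the X chromosome it was 90.1%, with 73 weaker and 8 stronger sites. The median score of the weaker sites there was 36.3, against 40.3 to 44.3 on the autosomes. The mice were male, and the part of X dosage in this share was not tested. Another weaker site lay within 10 kb of 39.1% of the weaker sites, a stronger site within 10 kb of 19.6% and an uncovered site within 10 kb of 34.1%. The median distance from a weaker site to the next weaker site was 17.3 kb and to the next stronger site 66.0 kb, where weaker sites outnumber stronger ones.

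In both lists the co-bound lines stand in 3 blocks separated by empty lines, without a label. The first block held 81.7% of weaker, 92.4% of stronger and 68.9% of uncovered sites, a difference from stronger sites of -10.7 points (-11.9 to -9.44, chi-square adjusted p = 4.8e-49). Earlier results of these data already showed HNF4α by block, so this test is not independent of them. The median HNF4α score of weaker sites was 42.9 in the first block, 39.6 in the second and 35.8 in the third. Within the first block alone the difference in the HNF4 share between weaker and stronger sites was -26.6 points.

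Genes were read by the same window as above. Of 22380 protein-coding genes 23.9% had a weaker site in the window and 14.3% a stronger site. Longer windows have more room for a site. The counts of the gene lists below are given beside these values and carry no test. Genes named for the most sites in a list were picked by their count of weaker sites, so their stronger sites are given as a description only.

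Of the 14 lipid genes for which the study designed primers, 10 had a weaker site, 7 a stronger site and 3 neither. *G0s2* had 4 weaker sites, the highest scored 60.8, of which 2 held an HNF4 match, beside 4 stronger sites and 1 uncovered site. At 58.9, the weaker site nearest to its TSS lay 1.39 kb upstream and held a match. *Smpd3*, a sphingomyelinase, also had 4 weaker sites, but 0 stronger ones. *Elovl6* had 3 weaker sites scored 32.0, 63.6 and 58.9, of which 1 held a match, beside stronger sites scored 85.8, 119.7 and 82.9. *Agpat2* had 3 weaker sites scored 49.0, 60.3 and 49.5 and 0 stronger ones, and all 3 held a match. Both weaker sites of *Gpd1* lacked a match, while its stronger site, scored 83.9 and 1.24 kb downstream of the TSS, held one.

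**Figure D5:**
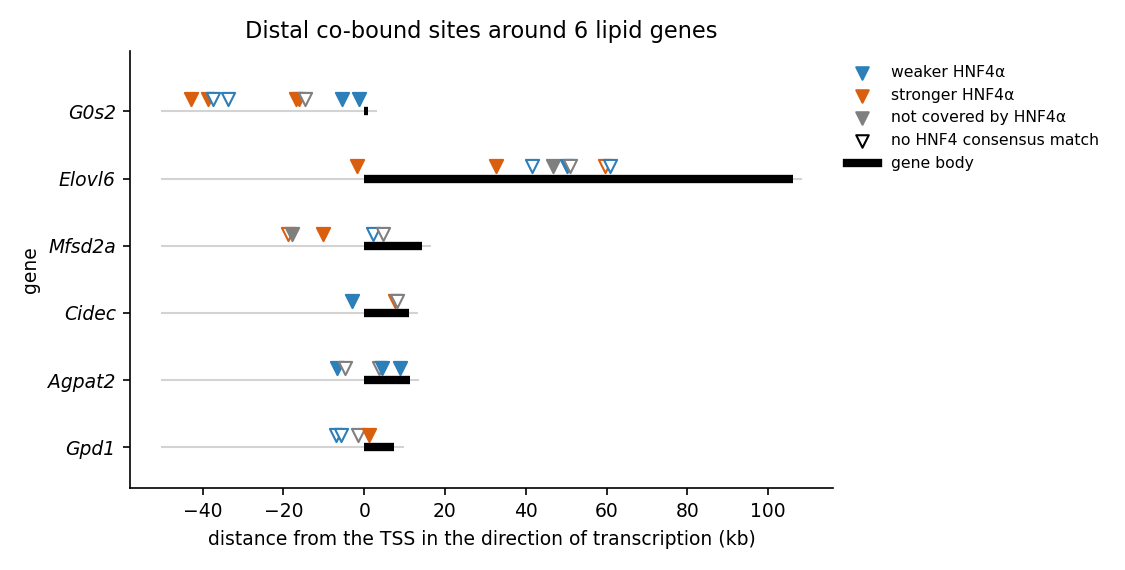
Distal co-bound sites around *G0s2*, *Elovl6*, *Mfsd2a*, *Cidec*, *Agpat2* and *Gpd1*, by distance from the TSS in the direction of transcription (kb), with weaker sites in blue, stronger in orange and uncovered in gray. Filled triangles hold an HNF4 consensus match, open ones do not, the black bar is the gene and the thin line the window. The 3 weaker sites of *Agpat2* are filled, and the 2 of *Gpd1* open.

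Of 13 genes of lipogenesis 11 had a weaker site and 7 a stronger one. *Elovl5*, an elongase of polyunsaturated fatty acids, had the most, with 6 weaker, 0 stronger and 0 uncovered sites. Of 10 genes of triglyceride synthesis 9 had a weaker site and 6 a stronger one, led by *Gpam*, the mitochondrial acyltransferase of the first step, with 6 weaker, 3 stronger and 8 uncovered sites. Of 17 genes of lipid droplets and lipolysis 9 had a weaker site and 4 a stronger one. There *Mgll*, monoglyceride lipase, had 4 weaker and 0 stronger sites, as many weaker ones as *G0s2*. Of 15 genes of fatty acid oxidation and ketogenesis 10 had a weaker site and 8 a stronger one. In these groups every list had more genes with a weaker than with a stronger site, as all genes did.

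In the lists of apolipoproteins and of genes of sugar and bile acid metabolism, as many or fewer genes had a weaker site as had a stronger one. Of 13 apolipoprotein and related genes 8 had a weaker and 8 a stronger site. *Apoa1* and *Apoa4*, which are neighbours and share sites, had 3 weaker sites each, and *Apob* had 3 weaker, 0 stronger and 0 uncovered sites. Of 12 genes of bile acid synthesis and transport 9 had a weaker and 9 a stronger site, led by *Abcc2*, an export pump of the canalicular membrane, with 8 weaker and 2 stronger sites. Of 12 genes of gluconeogenesis and glycogen 8 had a weaker and 10 a stronger site, and *Pcx*, pyruvate carboxylase, had 6 weaker and 2 stronger sites. The urea cycle had 5 of 7 genes with a weaker and 4 with a stronger site, with 4 weaker sites each at *Cps1* and *Arg1*, the first and the last enzyme of the cycle. Of 15 coagulation genes 8 had a weaker and 6 a stronger site, with 3 weaker sites each at *F5* and *F11*.

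Of 16 hepatocyte transcription factors 11 had a weaker and 10 a stronger site, with 5 weaker sites each at *Onecut2* and at *Nr5a2*, which encodes LRH-1. Of 18 core clock genes 10 had a weaker and 7 a stronger site. *Rora*, a nuclear receptor of the clock, had the most with 13 weaker sites in a window of 786.5 kb. Of 6 genes of the HDAC3-NCoR complex 4 had a weaker and 2 a stronger site, and *Tbl1xr1* had 5 weaker sites in a window of 191.9 kb. Of 14 neuronal genes, listed as genes that the liver does not use, 3 had a weaker site (1 each at *Syt1*, *Rbfox3* and *Grin2b*), 21.4% and close to the 23.9% of all genes, in windows with a median of 117.8 kb against 67.4 kb over all genes.

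With each site given to its nearest TSS within 100 kb, weaker sites fell to 3684 of 22238 genes, 16.6%, and stronger sites to 2147, 9.7%. Both kinds fell to 1320 genes, 35.8% of the former and 61.5% of the latter, an overlap that was not tested. A single weaker site was the rule, at 2113 genes, and 204 genes had 5 or more. *Acsl1*, the long-chain acyl-CoA synthetase of liver, had the most, 11 weaker sites beside 1 stronger and 4 uncovered ones. The corepressor-recruiting factor *Bcl6*, the estrogen receptor gene *Esr1*, the high-density lipoprotein receptor gene *Scarb1*, the calcium channel gene *Itpr1*, *Chn2*, *Rbm47*, *Rbpms* and *Vps13d* had 10 each. *Epas1*, which encodes HIF-2α, came next by name among genes with 9. Stronger sites at these 10 genes ran from 0 at *Rbpms* and *Epas1* to 5 at *Rbm47*. The genes were picked by their count of weaker sites, and 7893 weaker sites stand against 3524 stronger ones. No preference of these genes for weaker sites is therefore read from the counts.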

How the data were processed

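Reads of HDAC3, PROX1 and HNF4α ChIP-seq were aligned to mm9 by the authors with Bowtie 0.12.7. Duplicates were removed, replicates were pooled, and peaks were called with HOMER against IgG with limits on enrichment and normalized reads. For its comparison of HNF4α binding, the study describes HNF4α peaks filtered on the *Hnf4α* knockout. The authors deposited positions for HDAC3 and PROX1, and positions with a HOMER score for HNF4α. How that score was normalized is not given in the sources used here, and the depth per library is unknown.

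Positions are printed 1-based. Sites were placed against protein-coding transcripts of GENCODE on the NCBIM37 assembly, which is mm9. Consensus letters, written from textbook knowledge of each factor, were matched in 200 bp windows on both strands, without HOMER. Letters of motifs beyond 9 letters that need ambiguity codes are given by name. Shares were compared over sites with Pearson's chi-square test, two-sided, without continuity correction, the test of the study for groups of peaks. P-values were adjusted by Benjamini-Hochberg over 23 motifs, 13 consensus positions or 12 shares. Intervals of shares are Wilson intervals and those of differences Newcombe intervals. Neighbouring sites are not independent.

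The members and gene lists were chosen with earlier results of these data known. Named were the 3 highest and 3 lowest scored weaker sites, the 3 lowest scored stronger sites, the highest scored weaker site of each lipid gene, the genes with the most weaker sites in each list and the 10 with the most as nearest gene. A gene that this rule names is not reported here. Sequences were printed for 6 lipid genes with primers in the study, of which the paper's text names *G0s2*, *Elovl6*, *Mfsd2a* and *Cidec*. The next by score, *Cd36*, and a site at each end of the scores were also printed. No printed site lay in an exon or on chromosome 18. Overlaps, the motif scan and the chi-square test were tested on simulated data. Alternatives changed coverage, score limit, distance to the TSS, chromosomes, neighbours, blocks, continuity correction, mismatches, window, the uncovered class and GC strata. The tools were scipy 1.17.1, statsmodels 0.14.6, numpy 2.4.6, pandas 2.3.3, matplotlib 3.10.9, pysam 0.24.0 and samtools 1.23.1 under Python 3.11.15. RNA-seq, H3K27Ac and *Hnf4α* knockout samples were not analysed here.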

Additional observations from a re-analysis of the deposited data

How the results depend on the processing

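Of 114 values under the alternatives, 105 kept their direction and their side of the limit of the test, or stayed within 1.5 times for a count. The HNF4 share of weaker minus stronger sites ran from -27.0 to -11.9 points and that of weaker minus uncovered sites from 4.62 to 19.8 points. Both were smallest in size with 1 mismatch fewer, which also lowers the HNF4 share of each class. The C/EBP share of weaker minus stronger sites reversed to -0.803 points (chi-square p = 0.023) with 1 mismatch fewer and passed the test with a score limit of 50, at 2.54 points (chi-square p = 0.0014). Its difference from uncovered sites shrank to 0.498 points (chi-square p = 0.060) with 1 mismatch fewer. The intronic share of weaker minus stronger sites turned to -0.0360 points with 75% of the site covered (chi-square p = 0.98). Motifs called against stronger sites, 5 as reported, were 12 with a score limit of 50, 9 beyond 5 kb of a TSS, 2 with 1 mismatch fewer and 8 in 100 bp windows. The cause was not tested. With 75% coverage the weaker sites numbered 3882, since sites covered between 50% and 75% were left out. No paired analysis was possible because the authors pooled the replicates before calling peaks, so no column carries a replicate number, and for the same reason no replicate could be left out.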
